A study of Homo sapiens with 24 samples.

Results

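The comparison set A375 cells that overexpressed SLNCR without its triplex-forming region 5 (ΔTFR5) against A375 cells that overexpressed full-length SLNCR (FL), in the second of the study's batches. Its members were chosen by label: 3 ΔTFR5 libraries and 3 FL libraries, which are 6 of the 24 libraries in the series. A375 is an established human melanoma cell line. All groups were transfected by lipofection with a pcDNA3.1 plasmid that carries a CAG promoter, which drives strong expression in most mammalian cells, and a puromycin resistance gene. RNA was taken after 48 h in DMEM with 10% serum and 2 µg/mL puromycin, and the labels describe 3 biological replicates per condition. The ΔTFR5 plasmid held SLNCR lacking region 5, the FL plasmid held the whole transcript, and the empty vector group held the backbone with no insert. Values of empty vector are given here only as a level. Its 3 libraries and 3 libraries of SLNCR without region 4 (ΔTFR4) also entered the fit, for the estimate of the spread. SLNCR made from a plasmid is not made at its own locus.

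SLNCR, a long noncoding RNA, has been tied in earlier studies to the invasion of melanoma cells. RNA that forms a triplex lies in the major groove of double-stranded DNA and pairs there with a run of purines on one strand. Such a run is a stretch of only A and G on one strand and so of only C and T on the other. Noncoding RNAs that form triplexes are studied as guides that bring regulatory proteins to chosen promoters. The design asks which genes these regions of SLNCR regulate.

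Genes were tested with edgeR's quasi-likelihood test on 18763 genes, and a gene was called at a Benjamini-Hochberg adjusted p under 0.05. Levels are CPM, counts scaled to library size with TMM, and changes are log2 fold changes of ΔTFR5 over FL ± standard error. The test called 259 genes, which is 1.38% of those tested, and 155 of them rose in ΔTFR5 cells (0.826%) while 104 fell (0.554%). The median change over all genes tested was -0.02, and the median size of the change in the called genes was 1.02. Of the 255 called genes with a type in GENCODE v29, 226 were protein coding, against 14097 of the 18404 tested genes with a type.

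The promoters of 4 called genes are shown as examples because the design concerns RNA that pairs with purine runs. PRRX1, a homeobox transcription factor of mesenchyme, and SOX5, an SRY-box factor of neural crest and cartilage, were higher in ΔTFR5 cells. THBS1, which encodes the secreted matrix glycoprotein thrombospondin, and ABCB1, which encodes the drug efflux pump P-glycoprotein, were lower. Each sequence is the 250 bases before a RefSeq start of the gene in GRCh38.p14, written 5′ to 3′ on the gene's strand. Its longest run of only A and G or only C and T is in capitals. Only the first listed start of a gene was used, here and in the shares below, so any other start is not covered.
PRRX1: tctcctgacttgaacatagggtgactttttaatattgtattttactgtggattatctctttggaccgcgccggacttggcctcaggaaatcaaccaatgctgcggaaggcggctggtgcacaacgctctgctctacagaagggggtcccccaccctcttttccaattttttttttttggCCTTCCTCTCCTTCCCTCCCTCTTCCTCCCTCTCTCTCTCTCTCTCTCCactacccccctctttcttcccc
SOX5: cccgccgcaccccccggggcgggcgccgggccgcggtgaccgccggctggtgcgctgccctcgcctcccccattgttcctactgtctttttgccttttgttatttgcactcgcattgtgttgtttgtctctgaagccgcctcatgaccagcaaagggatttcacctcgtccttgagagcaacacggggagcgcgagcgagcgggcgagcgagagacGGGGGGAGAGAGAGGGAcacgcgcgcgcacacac
THBS1: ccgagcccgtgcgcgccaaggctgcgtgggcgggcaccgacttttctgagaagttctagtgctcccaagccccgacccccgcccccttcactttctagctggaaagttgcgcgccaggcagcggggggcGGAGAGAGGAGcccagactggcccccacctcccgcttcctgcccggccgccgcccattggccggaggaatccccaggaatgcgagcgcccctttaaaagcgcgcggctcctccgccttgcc
ABCB1: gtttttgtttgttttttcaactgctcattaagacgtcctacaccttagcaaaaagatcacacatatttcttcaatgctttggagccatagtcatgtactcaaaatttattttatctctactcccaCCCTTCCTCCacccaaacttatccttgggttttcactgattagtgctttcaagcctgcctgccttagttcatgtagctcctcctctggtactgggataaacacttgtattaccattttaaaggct

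The windows lie at chr1:170663881-170664130 (plus strand) for PRRX1, chr12:24562492-24562741 (minus strand) for SOX5, chr15:39580829-39581078 (plus strand) for THBS1 and chr7:87713296-87713545 (minus strand) for ABCB1. The PRRX1 window holds a pyrimidine run of 49 bases, from position -71 to -23 relative to the start. The longest run is 17 purines in SOX5, 11 purines in THBS1 and 10 pyrimidines in ABCB1. The ABCB1 window also holds a later run of 10 pyrimidines, and the earlier run is the one in capitals. A run of at least 15 such bases, which is the same run read on either strand, was found in 29 of the 111 genes that rose and have a RefSeq promoter entry (26.1%), in 13 of the 64 that fell (20.3%) and in 2070 of the 11808 tested genes with an entry (17.5%). The median longest run was 11 bases in each of these sets. These shares describe letters in a window and were not tested, and the files hold no measure of where SLNCR lay on DNA. The sequence of region 5 is not used here, so no match to it was made.

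The transfected gene was read first. SLNCR is counted in the row of the gene ENSG00000227036 (LINC00511 in GENCODE v29, GRCh38 chromosome 17, 72290091 to 72640472, minus strand), a locus that takes in LINC00673, the RefSeq gene with the synonym SLNCR. It lay at 320.8, 375.7 and 191.6 CPM in ΔTFR5 libraries 1 to 3, against 728.1, 658.3 and 334.1 CPM in FL libraries 1 to 3, and averaged 29.02 ± 1.12 CPM with empty vector (SD, n = 3). All 6 libraries were thus far above empty vector, and the groups overlapped because FL replicate 3 lay below ΔTFR5 replicate 2. The difference of -0.95 ± 0.26 did not pass (adjusted p = 0.0802). It passed when FL replicate 3 was left out (-1.23, adjusted p = 0.00208) and under DESeq2 (adjusted p = 0.0115). The ΔTFR5 transgene gives no reads over region 5, and reads of LINC00511 cannot be separated from those of SLNCR. The loss of region 5 and a lower SLNCR level cannot be told apart in this design.

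CDKN1A, POU4F1 and EGR1, which earlier work ties to SLNCR, did not pass. CDKN1A, which encodes the cell cycle inhibitor p21, differed by -0.36 ± 0.20 (adjusted p = 0.333), and POU4F1, a transcription factor whose protein is reported to bind SLNCR, by -0.29 ± 0.25 (adjusted p = 0.544). EGR1, an immediate-early zinc finger factor, lay at 229.9, 434.3 and 23.4 CPM in ΔTFR5 libraries, against 386.6, 560.3 and 43.4 CPM in FL libraries, with 22.6 CPM on average with empty vector. Replicate 3 was the lowest library of its group in both groups, for EGR1 and for SLNCR. MMP9, a matrix metalloprotease linked with SLNCR in invasion, was at no more than 0.0356 CPM in any ΔTFR5 library and 0.111 CPM in any FL library, too few counts to be tested.

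The FL libraries stood apart from each other, and this bears on every count below. Among 13107 genes at a mean log2 CPM of 1 or more, the median SD between replicates of log2(CPM + 1) was 0.13 in ΔTFR5 and 0.314 in FL. Across genes, ΔTFR5 libraries correlated with each other at r = 0.980 to 0.986 and FL libraries at 0.947 to 0.974. FL replicate 3 correlated with the ΔTFR5 libraries at 0.974 to 0.979, and FL replicate 1 with them at 0.947 to 0.952. FL replicate 1 also differed by base composition: over genes, the rank correlation of GC content with the deviation of its log2 CPM from the mean of 12 libraries was -0.54, against 0.01 and 0.14 in the other FL libraries and -0.13 to 0.28 in ΔTFR5. Library totals ran from 24810226 to 27699334 estimated counts in ΔTFR5 and from 28047809 to 33063445 in FL.

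The number of calls followed the libraries in the fit. Without ΔTFR5 replicate 1, 2 or 3 it was 31, 19 and 399 genes, and without FL replicate 1, 2 or 3 it was 596, 182 and 3480. Without FL replicate 3 the 3480 calls took in all 259 genes (100% of these and 7.44% of the 3480), and 1394 of them were higher and 2086 lower in ΔTFR5. The main fit took its estimate of the spread from all 12 libraries of the batch. With the 6 compared libraries alone 1 gene was called, MYOCD, and 1845 genes had an unadjusted p under 0.05, against 3897 (20.8%) with 12 libraries. None of the 259 genes changed direction in any of these fits. The groups did not overlap in CPM for 257 of them, so leaving out a library could hardly reverse these.

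**Figure D1:**
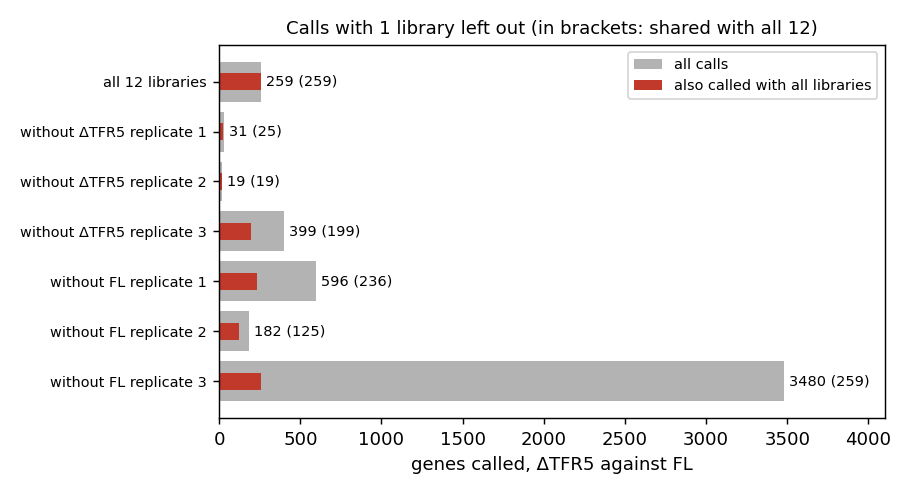
Number of genes called in ΔTFR5 against FL (horizontal axis) with all 12 libraries of the batch in the fit and with 1 compared library left out at a time (rows). Grey bars are all calls and red bars those also called with all 12 libraries; the count ran from 19 without ΔTFR5 replicate 2 to 3480 without FL replicate 3.

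The firmest changes were those of 19 genes that were called whichever of the 6 libraries was left out. The fit without ΔTFR5 replicate 2 called these 19 genes and no others, so that fit alone set the list. This set was drawn up after the values were seen, and 12 of them rose and 7 fell. Their CPM did not overlap between the groups. This also held for 257 of all the called genes, so it did not set these 19 genes apart. In the fit of 6 libraries alone their adjusted p ran from 0.0433 to 0.274.

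Receptors and other membrane proteins were among those that rose. ERBB3, a receptor of the EGF receptor family that binds neuregulins (chromosome 12, 56076799 to 56103505 in GRCh38), lay at 24.7, 24.2 and 26.8 CPM in ΔTFR5, against 8.71, 8.82 and 10.4 CPM in FL and 14.7 ± 0.885 CPM with empty vector (SD, n = 3). The lowest ΔTFR5 library was thus well above the highest FL library, and the difference was 1.44 ± 0.13 (adjusted p = 0.000855). SDC3, a heparan sulfate proteoglycan of the cell surface, had 27.1, 23.6 and 25.4 CPM in ΔTFR5, against 5.95, 8.97 and 8.93 CPM in FL (1.67 ± 0.17, adjusted p = 0.000855). TNFRSF19, a receptor of the tumour necrosis factor family, had 7.95, 5.88 and 6.78 CPM in ΔTFR5, against 1.29, 1.62 and 1.59 CPM in FL (2.19 ± 0.25, adjusted p = 0.00198). TRPM8, the cold-sensing cation channel, rose by 2.60 ± 0.33 to 1.79 ± 0.0693 CPM in ΔTFR5, against 0.291 ± 0.0462 CPM in FL (SD, n = 3 each, adjusted p = 0.00323). SYTL5, a synaptotagmin-like protein of vesicle traffic, rose by 1.68 ± 0.24.

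Secreted and matrix proteins moved in both directions. THBS1 fell to 1029, 940.4 and 1159.6 CPM in ΔTFR5, against 2366.5, 2374.5 and 2877 CPM in FL, and averaged 2631 ± 11.9 CPM with empty vector (SD, n = 3). The empty vector mean thus lay inside the range of the FL libraries and the ΔTFR5 libraries were low, with a change of -1.28 ± 0.12 (adjusted p = 0.000855). DKK1, a secreted inhibitor of Wnt signalling, fell by 0.80 on the log2 scale, to 63.5 ± 3.20 CPM in ΔTFR5, against 110.5 ± 8.80 CPM in FL. FN1, fibronectin, rose by 0.91 ± 0.14, with 152.9, 144.9 and 176.7 CPM in ΔTFR5, against 81.4, 70.9 and 101.1 CPM in FL (adjusted p = 0.0108). HMCN1, the extracellular matrix protein hemicentin, was at 8.35, 7.98 and 8.17 CPM in ΔTFR5, against 2.703, 1.33 and 1.87 CPM in FL (2.04 ± 0.24, adjusted p = 0.00221). HTRA1, a secreted serine protease, rose to 41.4 ± 3.73 CPM in ΔTFR5, against 17.5 ± 3.84 CPM in FL (SD, n = 3 each, adjusted p = 0.00395). THSD4, a matrix protein with thrombospondin repeats, rose by 0.86 ± 0.11 (adjusted p = 0.00323).

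Among transcription factors, PRRX1 was at 26.2, 22.2 and 26.9 CPM in ΔTFR5, against 10.0, 9.23 and 10.2 CPM in FL (1.35 ± 0.16, adjusted p = 0.00221). SOX5 was at 16.9, 17.2 and 24.2 CPM in ΔTFR5, against 7.57, 5.31 and 7.87 CPM in FL (1.49 ± 0.19, adjusted p = 0.00376). The groups did not overlap for either gene. Of the 14 firm genes with a promoter entry, only these 2 hold a run of at least 15 bases, as shown above. That share was not above the 17.5% over all tested genes with an entry. MYOCD, the coactivator of serum response factor in smooth and heart muscle (chromosome 17, 12665890 to 12768949), had 4 counts in the 3 ΔTFR5 libraries together, against 331 in the 3 FL libraries. Its CPM was 0.0795, 0.0356 and 0.0377 in ΔTFR5, against 4.87, 3.91 and 1.97 in FL and 0.0451 ± 0.0149 with empty vector (SD, n = 3). The ΔTFR5 and empty vector libraries were near 0 and the FL libraries were not, with a change of -6.03 ± 0.63 (adjusted p = 0.000982).

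USHBP1, which encodes a protein that binds the Usher syndrome protein harmonin, had the same order of levels. It gave 17 counts in ΔTFR5, against 534 in FL, and its CPM was 0.358, 0.0713 and 0.226 in ΔTFR5, against 6.43, 8.75 and 2.59 in FL and 0.130 ± 0.0845 with empty vector (SD, n = 3). The change was -4.75 ± 0.59 (adjusted p = 0.00323). ABCB1 was at 1.47, 1.89 and 1.39 CPM in ΔTFR5, against 6.22, 7.90 and 6.34 CPM in FL (-2.10 ± 0.21, adjusted p = 0.00087). The long noncoding genes AC245041.1 and AC245041.2, which overlap on chromosome 10 and so can share reads, fell by 1.77 and 1.72 on the log2 scale. LONRF2, a RING finger protein, rose by 1.22 ± 0.16.

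**Figure D2:**
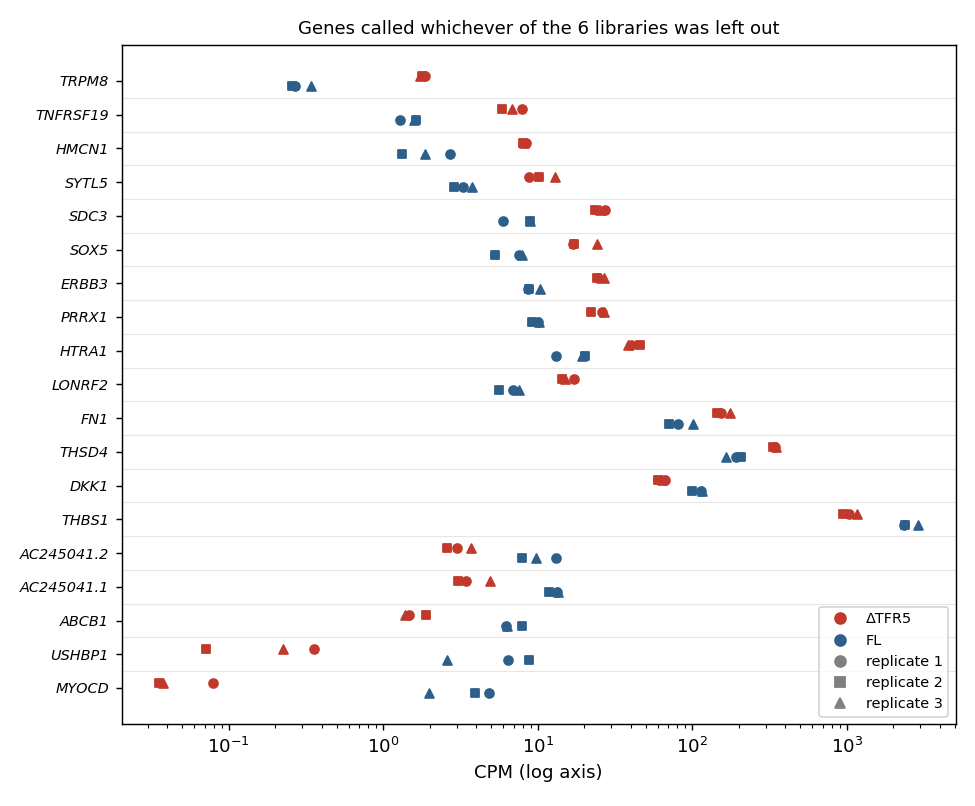
Level in CPM (log axis) of the 19 genes called whichever library was left out, with ΔTFR5 libraries in red above FL libraries in blue and the marker shape giving the replicate number. In each row the colours do not overlap; the widest gaps are those of MYOCD and USHBP1, the lowest rows.

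A second set of called genes had a different layout, in which FL replicates 1 and 2 were far from ΔTFR5 and FL replicate 3 lay near it. FL replicate 3 was the FL library nearest to ΔTFR5 in 63 of the 104 genes that fell and in 72 of the 155 that rose. The same share over all genes tested was not counted, so this layout was not shown to be particular to called genes. Across all genes FL replicate 3 correlated with the ΔTFR5 libraries at 0.974 to 0.979, and FL replicate 2 at 0.971 to 0.974. HBEGF, the heparin-binding ligand of the EGF receptor, was at 66.3, 87.2 and 81.3 CPM in ΔTFR5, against 333.8, 323.8 and 95.6 CPM in FL (-1.68 ± 0.34, adjusted p = 0.0336). RHOB, a small GTPase of endosomes and the actin skeleton, was at 67.6, 96.99 and 63.1 CPM in ΔTFR5, against 343.3, 341.2 and 97.5 CPM in FL (-1.78 ± 0.37, adjusted p = 0.0374). HBEGF and RHOB were called in 1 of the 6 fits that left out a library, the fit without FL replicate 3 (adjusted p = 1.92e-05 and 0.000124), and not without any other library (0.0593 to 0.176 for HBEGF).

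RGS2, which speeds the switching off of G proteins, fell by 2.02 on the log2 scale, with 4.77, 4.67 and 6.59 CPM in ΔTFR5, against 31.0, 25.5 and 8.62 CPM in FL (adjusted p = 0.0216), and was called in 3 of the 6 fits. MITF, the regulator of the melanocyte lineage, was at 55.8, 62.0 and 62.7 CPM in ΔTFR5, against 198.0, 126.8 and 80.3 CPM in FL (-1.17 ± 0.23, adjusted p = 0.0327). It was called when FL replicate 1 (0.0124) or FL replicate 3 (0.000201) was left out, and its adjusted p without another library ran from 0.0511 to 0.159. SLNCR was lowest in that same FL library, at 334.1 CPM, and the part of its SLNCR level in these differences was not tested.

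**Figure D3:**
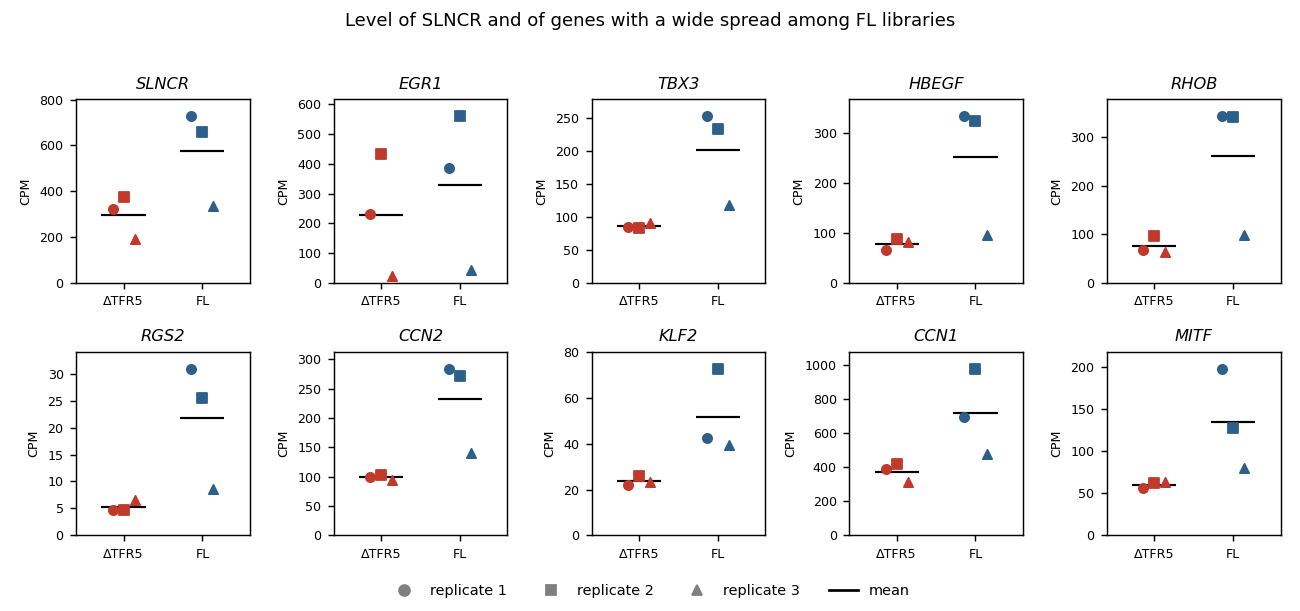
Level in CPM (vertical axes start at 0) of the SLNCR row, EGR1 and 8 called genes in the 3 ΔTFR5 libraries (red) and the 3 FL libraries (blue), with the mean as a bar and marker shape for the replicate. FL replicate 3 (triangle) is the lowest FL library in all 10 panels, as in HBEGF at 95.6 CPM beside 333.8 and 323.8.

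Other large changes by the naming rule were spread over many functions. Among rises, DNAH1, an axonemal dynein heavy chain, changed by 1.97 ± 0.29, ZNF862, a zinc finger protein, by 1.83 ± 0.26 and SERPINF1, the secreted serpin PEDF, by 1.71 ± 0.29. SERPINA3, the acute-phase inhibitor antichymotrypsin, rose by 1.56 ± 0.22 to 30.1, 35.03 and 38.1 CPM in ΔTFR5, against 9.16, 11.7 and 14.1 CPM in FL. EPHA3, an ephrin receptor, rose by 1.502 ± 0.26 and IGFBP5, a binding protein of insulin-like growth factors, by 1.53 ± 0.25. Among falls, KITLG, the ligand of the KIT receptor, changed by -1.52 ± 0.27, with 2.47, 1.25 and 1.81 CPM in ΔTFR5, against 6.46, 3.51 and 5.84 CPM in FL. DLEU2, an antisense noncoding gene whose reads cannot be told from its partner's here, fell by 1.61, AC110790.1 by 1.96, and the protein-coding genes TDRD15 and INSYN2B by 1.72 and 1.49, all on the log2 scale. The adjusted p of these 11 genes ran up to 0.0454, and each lost its call without at least one library, ΔTFR5 replicate 2 among them (0.0526 for SERPINA3 to 0.199 for INSYN2B). AC127496.7 rose by 1.55 ± 0.33 and was called in 3 of 6 such fits.

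**Figure D4:**
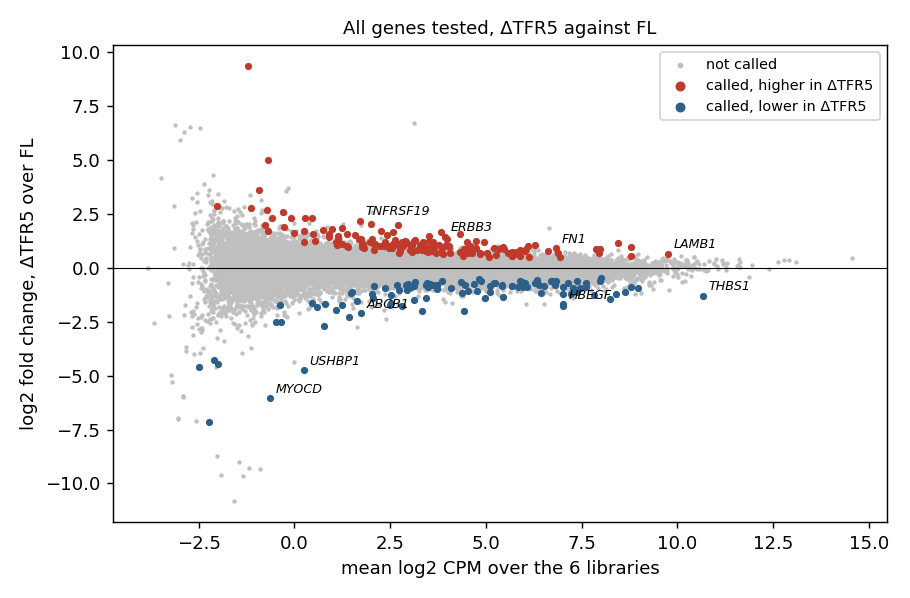
Log2 fold change of ΔTFR5 over FL (vertical axis) against mean log2 CPM over the 6 libraries (horizontal axis) for the 18763 genes tested. The 155 called genes that rose are red, the 104 that fell are blue and the rest are grey; THBS1, at a change of -1.28, is the called gene of highest level.

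Gene groups were read as counts of called members beside the 1.38% called over all genes, with no test of a group. Other fits called more genes in all, so their list counts stand beside other totals. Without FL replicate 3 the test called 1394 of 19409 genes higher and 2086 lower. Without FL replicate 1 it called 287 of 19234 higher and 309 lower. With each library's GC trend removed it called 386 of 18763 higher and 479 lower. Of 45 lists, 22 had at least 1 called member and 4 had at least 3. Among 13 members of the EGF receptor family and its ligands tested, the receptor ERBB3 rose and the ligands HBEGF and NRG1 fell. The median change was -0.43 over the list, against -0.02 over all genes, and without FL replicate 1 it was -0.20 over the list, with 1 risen and 1 fallen. NRG1, a neuregulin that binds ERBB3, was at 49.9, 49.2 and 47.9 CPM in ΔTFR5, against 82.7, 73.4 and 73.3 CPM in FL (-0.64 ± 0.10, adjusted p = 0.0116), and was not called without ΔTFR5 replicate 1 (0.0745) or 2 (0.0883). The other members did not pass: EGFR itself differed by -0.43 ± 0.21 (adjusted p = 0.263), ERBB2 by 0.24 ± 0.20 (0.518), and the ligand TGFA by -0.35 ± 0.15 (0.218). ERBB4, a receptor, had 4 counts in ΔTFR5, against 38 in FL, most of them in FL replicate 1.

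Of 36 collagens, laminins and matrix glycoproteins tested, 4 rose and 1 fell, with a median of 0.16. Without FL replicate 3 the count was 10 risen and 2 fallen (median 0.27), without FL replicate 1 it was 3 risen and 2 fallen (0.12), and with each library's GC trend removed it was 7 risen and 1 fallen (0.04). Beside FN1 and THBS1, LAMB1, a laminin chain of basement membranes, rose by 0.65 ± 0.13, with 1115, 1096.5 and 1070.6 CPM in ΔTFR5, against 583.5, 834.7 and 676.5 CPM in FL (adjusted p = 0.0314). TNC, the matrix protein tenascin C, rose by 0.55 ± 0.12 (adjusted p = 0.0392), with 529.4, 560.5 and 529.3 CPM in ΔTFR5, against 350.8, 398.1 and 359.6 CPM in FL. COL6A3, a chain of collagen VI, rose by 0.93 ± 0.20 (adjusted p = 0.0435). LAMB1 and TNC were not called without ΔTFR5 replicate 1 (0.154 and 0.157) or 2 (0.138 and 0.17), and COL6A3 was called without FL replicate 2 (0.0358) or 3 (0.0167) only. Other members had no adjusted p under 0.05, such as COL4A1 (-0.30), COL4A2 (0.40), HSPG2 (0.77) and SPARC (-0.15). Of 20 integrin subunits tested, 2 rose, ITGB8 by 0.80 ± 0.16 and ITGA10 by 0.78 ± 0.16, and none fell; without FL replicate 3 it was 4 risen and 1 fallen.

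Of 25 AP-1 and immediate-early genes tested, 3 fell and none rose, with a median of -0.45. CCN2, the matricellular growth factor CTGF, fell to 99.6, 103.6 and 95.0 CPM in ΔTFR5, against 284.5, 271.2 and 140.9 CPM in FL (-1.22 ± 0.20, adjusted p = 0.0155). CCN1, its relative CYR61, fell by 0.94 on the log2 scale (adjusted p = 0.042), and KLF2, a Krüppel-like factor, by 1.12 (adjusted p = 0.028). CCN2 was not called without ΔTFR5 replicate 1 (0.097) or 2 (0.0967), KLF2 was called only without FL replicate 1 (0.0167) or 3 (0.00183), and CCN1 only without FL replicate 3 (0.000586). KLF6 (-1.04) and FOSL1 (-1.03) had an adjusted p of 0.0584 each, and JUN differed by -1.23 ± 0.57 (0.243), with 76.8, 125.1 and 40.4 CPM in ΔTFR5, against 185.2, 339.9 and 44.6 CPM in FL. FOS itself differed by 0.06. Without FL replicate 3 the count was 14 fallen and 1 risen, and with each library's GC trend removed it was 6 fallen and 1 risen. CCN1 and CCN2 are also the 2 of 23 YAP and TEAD targets that fell, a list with a median of -0.33. That list had 11 fallen and 2 risen without FL replicate 3, and without FL replicate 1 it had 1 of each and a median of -0.20.

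Of 23 genes of dedifferentiated melanoma tested, 2 rose (FN1 and TNC) and 4 fell, among them NRG1, CCN1 and CCN2, with a median of -0.09. Without FL replicate 3 it was 3 risen and 9 fallen (median -0.21), and without FL replicate 1 it was 3 risen and 2 fallen (-0.02). AXL, the receptor kinase that marks this state, was at 1555, 1510.4 and 1535 CPM in ΔTFR5, against 1724, 1820.1 and 1246 CPM in FL, and the groups overlapped. Among 19 androgen response genes, ACSL3, a fatty acid activating enzyme, fell by 0.62 ± 0.14 and ELL2, an elongation factor, by 0.93 ± 0.20. Among 23 genes of the BMP, activin and TGF-beta response 2 fell, among them SMAD7, an inhibitor of the pathway, by 0.98 ± 0.16 (adjusted p = 0.0133). Among 40 genes of DNA replication 2 fell, among them RRM2, a subunit of ribonucleotide reductase, by 1.12 ± 0.24. Its 3 ΔTFR5 libraries were uneven, with 96.4, 81.2 and 172.3 CPM in ΔTFR5, against 237.2, 208.8 and 316.7 CPM in FL. The calls of ITGB8, ITGA10, ACSL3, ELL2, SMAD7 and RRM2 were each lost without ΔTFR5 replicate 1 (adjusted p from 0.097 to 0.23) and without ΔTFR5 replicate 2 (0.1 to 0.193). Without FL replicate 3, 7 androgen response genes fell and 2 rose, 7 genes of the BMP, activin and TGF-beta response fell and 2 rose, and 2 genes of DNA replication fell and 2 rose, where the median was 0.19, against -0.20 with all libraries. Without FL replicate 1 the last list had 1 fallen gene and a median of -0.38, and the BMP, activin and TGF-beta list had 1 fallen gene.

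None of 81 cytosolic ribosomal protein genes was called, though their median was 0.29, and 23 were higher in every ΔTFR5 library than in any FL library (28.4% of the list, against 9.53% of all genes tested). Their summed level was 46340 to 54730 CPM in ΔTFR5, against 35920 to 48550 CPM in FL, where FL replicate 1 was the lowest library. Without that library their median was 0.13. Without FL replicate 3 the median was 0.35 and 8 of the 81 were called higher, where 1394 of all 19409 genes tested were. None of 30 SR proteins and hnRNPs, which bind and splice pre-mRNA, was called, with a median of -0.26. Of the 30, 9 were lower in every ΔTFR5 library than in any FL library (against 7.57% of all genes tested). At an unadjusted p under 0.05, 13 of the 30 were lower, against 20.8% of all genes tested in both directions together. Without FL replicate 1 the test called 8 of them as fallen (median -0.35), and without FL replicate 3 it called 8 as fallen and 1 as risen (-0.15). None of 36 genes of G2 and mitosis was called, with a median of -0.26. Without FL replicate 1 or FL replicate 3, 2 of them fell, with a median of -0.38 and -0.07. The mitochondrially encoded genes, of which 13 were tested, had a median of 0.17 and no call; without FL replicate 1 the median was 0.42, and without FL replicate 3 it was 0.19 and 2 were called higher. Ribosomal protein and histone genes have near-identical copies elsewhere in the genome, so their estimated counts are uncertain.

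**Figure D5:**
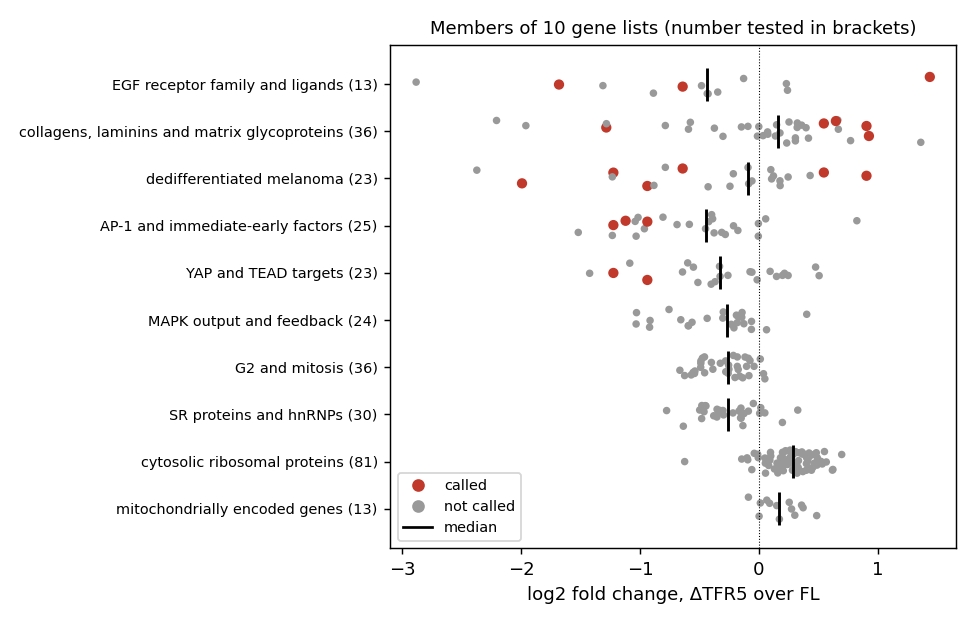
Log2 fold change of ΔTFR5 over FL (horizontal axis) for each tested member of 10 gene lists (rows, number tested in brackets), with called members in red, others in grey and the list median as a black bar. Medians run from -0.45 in the AP-1 list to 0.29 in the ribosomal protein list, where no member was called.

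The labelled cell type was read from markers. SOX10, a factor of the melanocyte lineage, was at 51.0 to 57.0 CPM in ΔTFR5, against 43.9 to 48.3 CPM in FL, and the pigment genes PMEL and MLANA were at no more than 1.15 CPM and TYR at no more than 0.0795 CPM in any library. The labels describe the cells as epithelial. EPCAM, a defining epithelial gene, was at no more than 0.0753 CPM and CDH1 at no more than 1.37 CPM, while the keratins KRT8 and KRT18 were expressed. Of 24 markers of other cell types, 16 had enough counts to be tested and 1 passed: KRT14, a keratin of skin, fell by 1.69 on the log2 scale and was under 5 CPM in every library. Their summed level was 870.5 to 873.5 CPM in ΔTFR5, against 563.2 to 946.1 CPM in FL. The median change of the 16 was -0.61, and 5 of them were lower and 2 higher in every ΔTFR5 library than in any FL library (against 7.57% and 9.53% of all genes tested). At an unadjusted p under 0.05, 6 of the 16 were lower and 2 higher, against 20.8% of all genes tested in both directions together. The test called 3 as fallen and 2 as risen without FL replicate 3 (median -0.49). The part of such cells in the results above was not tested.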

How the data were processed

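RNA was measured by sequencing after ribosomal RNA depletion, per the labels' protocols. The authors deposited estimated counts, named as results of salmon, for 60221 genes of batch 2. Of the values above 0, 64.11% were whole within 0.01, and all were rounded to whole numbers here. Listed in the submitters' processing notes, with no role, are STAR 2.7.3a, cutadapt 2.5, FastQC 0.11.5, featureCounts (Subread 1.6.2), DESeq2 1.24.0 and the builds GRCh38 and GRCm38. The sources used here give no version of salmon, annotation or strand setting, so genes with near-identical, overlapping or antisense copies have uncertain counts.

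Genes were kept by filterByExpr (minimum count 10, minimum total 15), scaled with TMM and tested in R 4.3.3 with edgeR 4.0.16 (quasi-likelihood, robust, group as the only term, prior count 2 for log2 CPM). All 12 libraries of the batch gave the spread (biological coefficient of variation 0.212), and ΔTFR5 was tested against FL. Standard errors were taken as the size of a log2 fold change divided by the root of its F statistic. Benjamini-Hochberg adjustment ran over 18763 genes. The procedure was tested on simulated data with the same spread in every group, so the wider spread among FL libraries was not covered. Same-numbered ΔTFR5 and FL libraries deviated from their group means with r = 0.05, 0.20 and 0.08 across genes. Replicates differed by more than sampling noise, with a chi-square per gene of 11.3 to 37.3 in ΔTFR5 and 59.7 to 192 in FL. P-values of the main fit set each difference against a spread estimated from all 12 libraries, and reach no further than these samples. With the 6 compared libraries alone the biological coefficient of variation was 0.272.

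Gene names are those of the table; positions and types come from GENCODE v29 (GRCh38) and promoter sequences from RefSeq (GRCh38.p14). The members and gene lists were chosen with earlier results of these data known. The naming rule took SLNCR and linked genes, the called genes with the 12 largest increases and 12 largest decreases (at a mean log2 CPM of 1 or more, with a symbol and no overlap of the groups), and up to 4 members of any list in which 3 or more were called; other genes named were chosen after their values were seen, and some genes the rule takes are not reported here. Alternatives were DESeq2 1.42.0, other size factors and filters, a replicate block, removal of each library's GC trend, the 6 libraries alone and leaving out libraries.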

Additional observations from a re-analysis of the deposited data

How the results depend on the processing

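None of the 259 genes changed direction under any alternative that tested it. All alternatives reuse the same libraries, and 257 of these genes had groups that did not overlap, so a kept direction adds little. The number of genes called depended on the processing. It was 1399 with DESeq2 (588 higher, 811 lower in ΔTFR5), 486 with no filter on low counts (232 higher, 254 lower), 865 with each library's GC trend removed (386 higher, 479 lower), and 1 with the 6 compared libraries alone. DESeq2 size factors in edgeR gave 257 and a filter of 1 CPM gave 322. Leaving out 1 library at a time gave 19 to 3480 calls, and leaving out 1 replicate number from both groups gave 24 to 3353. In fits chosen after seeing the data, the count was 25 without the 3 libraries of the other deletion group, 26 without the 3 empty vector libraries, and 14 with the 6 libraries alone and without FL replicate 1. The cause of these differences was not tested beyond the libraries named.

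The replicate numbers were not shown to pair the samples. With the number as a block the count was 170 with 12 libraries, 157 of them among the 259, 2 with the 6 libraries alone, and 761 with the GC trend also removed. Every library's deviations correlated best with those of its own number in the other group, but only at r = 0.05, 0.20 and 0.08. The labels state no pairing, and whether the numbers pair the samples was not tested.

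SLNCR kept its direction, at -0.72 to -1.23 when a library was left out. Its difference passed under DESeq2 (-0.95), with the GC trend removed and the replicate block (-0.95, adjusted p = 0.0281), and without FL replicate 3 or without replicate 3 of both groups (-0.96). EGR1 ran from -1.38 to 0.11 when a library was left out, with the reversed values without ΔTFR5 replicate 3 (0.01) and without FL replicate 2 (0.11). At these depths, genes of a few counts in a library, such as MYOCD in ΔTFR5, are limited by counting error.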

Other observations

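The genes below fall outside the naming rule or the lists, and were chosen after their values were seen. Secreted gel-forming mucins, the main proteins of mucus, include 3 genes that lie near each other at the end of chromosome 11 and rose in ΔTFR5 cells. MUC6 was at 119.2, 124.3 and 96.95 CPM in ΔTFR5, against 65.7, 51.4 and 43.8 CPM in FL and 25.3 ± 5.33 CPM with empty vector (SD, n = 3), a rise of 1.08 ± 0.18 (edgeR's quasi-likelihood test, adjusted p = 0.0138). MUC5B rose by 1.31 ± 0.27 (adjusted p = 0.0366) and MUC2 by 1.01 ± 0.23 (0.0498). MUC5AC, their neighbour, differed by -1.43 ± 0.95 and did not pass (0.413). With each library's GC trend removed, MUC6 (0.117) and MUC2 (0.204) were no longer called, and without ΔTFR5 replicate 1 none of the 3 was (0.0843 to 0.211).

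Some factors of neural crest and other lineages also moved. SOX2, a factor of stem cells and glia, was at 3.86, 4.28 and 2.64 CPM in ΔTFR5, against 0.691, 1.03 and 1.41 CPM in FL (1.78 ± 0.30, adjusted p = 0.0161). TBX3, a T-box repressor, was at 84.5, 83.5 and 90.4 CPM in ΔTFR5, against 253.3, 234.3 and 117.7 CPM in FL (-1.23 ± 0.21, adjusted p = 0.0168). SNAI2, a zinc finger repressor of the neural crest, fell by 2.29 on the log2 scale (adjusted p = 0.0442), but its groups overlapped, with 1.15, 1.67 and 1.205 CPM in ΔTFR5, against 11.3, 6.86 and 1.66 CPM in FL. Each of these 3 calls was lost without ΔTFR5 replicate 1 (0.0926 to 0.212) and without ΔTFR5 replicate 2 (0.105 to 0.164).

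TIE1, an endothelial receptor kinase, and BGN, the matrix proteoglycan biglycan, were higher in ΔTFR5 than in FL and than with empty vector. TIE1 was at 20.8, 20.2 and 15.8 CPM in ΔTFR5, against 6.34, 10.7 and 7.75 CPM in FL and 2.93 ± 0.227 CPM with empty vector (SD, n = 3). BGN was at 18.6, 19.3 and 14.8 CPM in ΔTFR5, against 6.79, 9.89 and 5.87 CPM in FL and 2.04 ± 0.513 CPM with empty vector (SD, n = 3). The ΔTFR5 and FL groups did not overlap for either gene (1.201 ± 0.19 and 1.23 ± 0.21, adjusted p = 0.0133 and 0.017), and both calls were lost without ΔTFR5 replicate 1 (0.0898 and 0.0977) or 2 (0.0953 and 0.106).

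A few genes were present in one group and near 0 in the other. DMRTB1, a DM-domain factor of the germ line, had 231 counts in the 3 ΔTFR5 libraries, against 0 in the 3 FL libraries, so it was at least 91.5-fold higher against a floor of 3 counts over the group, and it was at 0 in every empty vector library. Its call (adjusted p = 0.0152) was lost under DESeq2 (0.182) and without ΔTFR5 replicate 1 (0.0874) or 2 (0.0967). SLC2A9, a urate transporter, had 1.99, 3.63 and 2.90 CPM in ΔTFR5, against 0.120, 0 and 0.125 CPM in FL (adjusted p = 0.0119, and 0.0892 without ΔTFR5 replicate 2). CFTR, the chloride channel mutated in cystic fibrosis, had 0 counts in ΔTFR5, against 59 in FL, and was at least 16.5-fold lower. Its call (adjusted p = 0.0421) held without FL replicate 1 (0.0416) or 3 (0.0084) and was lost without any of the other 4 libraries (0.0634 to 0.165). ALAS2, the erythroid enzyme of haem synthesis, was at 56.0 CPM in FL replicate 1 and under 1 CPM in the other 5 libraries, and was not called (adjusted p = 0.0855).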
